A study of Mus musculus with 4 samples.

Results

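The genes described here are the nuclear-encoded subunits of the mitochondrial respiratory chain and of ATP synthase, together with the assembly factors and isoforms that share their gene names. A gene was a member if the array annotation mapped to a symbol beginning with Nduf (followed by a, b, c, s or v), Sdh (a to d), Uqcr, Cox4 to Cox8 (with a subunit letter a to c) or Atp5. In RefSeq's annotation 113 genes matched, 94 of them protein coding, and 90 had at least 1 of 112 probes on the array, out of 22916 named genes and 56605 probes in all. The protein-coding matches without a probe were Cox5b, Ndufb1, Ndufb4b and Ndufb4c. By function the 90 genes were 36 subunits of complex I, 8 assembly factors of complex I, 4 subunits of complex II, 8 of complex III, 9 broadly expressed subunits of complex IV, 7 tissue isoforms of complex IV, 17 subunits of ATP synthase (complex V) and Cox7a2l, a factor that joins complexes III and IV. Ndufa4 and Ndufa4l2 are named for complex I but were counted with complex IV, to which Ndufa4 is assigned. Ndufa4l2 was placed in the set of tissue isoforms.

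The cells were mouse pancreatic islet cells from 60-week-old C57BL/6 littermates that the labels call male; the islets were handpicked and dispersed before treatment ex vivo. MOTS-c is a short peptide encoded in the mitochondrial 12S rRNA gene, and the control was a scrambled peptide. Both were given at 10 μM for 24 h, with 2 samples per group, each on 1 one-color Agilent array (scrambled replicates 1 and 2, MOTS-c replicates 2 and 3). The comparison asks whether the transcripts of the respiratory complexes differ between islet cells given MOTS-c and those given the scrambled peptide. The samples came from 4 littermates, and the labels do not tie a sample to an animal, so p-values measure the spread between these samples, which may in part be technical. The number of arrays limits the precision throughout.

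The respiratory chain passes electrons from NADH (complex I) and succinate (complex II) through ubiquinone, complex III and cytochrome c to oxygen at complex IV, and the proton gradient built on the way drives ATP synthase. Nuclear genes encode most of the subunits and mitochondrial DNA encodes the remainder. In beta cells, ATP made in this way closes potassium channels and so couples glucose metabolism to insulin secretion.

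Between 61.6% and 65% of gene spots were well above background on each array and 0 were saturated. The islet hormone genes Ins1, Ins2 and Gcg were detected on all 4 arrays. Ins1, which encodes insulin, differed by -0.04 ± 0.12 (SE) on the log2 scale between MOTS-c and scrambled, Ins2 by -0.05 ± 0.12, and Gcg, which encodes glucagon, by 0.11 ± 0.12. Of 9 beta cell markers 7 were well above background on all 4 arrays, and Ucn3, a marker of mature beta cells, on 0. The beta cell gene Slc2a2 (log2 change -1.33) and the alpha cell gene Irx2 (0.68), both dim, were at an unadjusted limma p under 0.05. So were Pdgfra (-1.05) of the mesenchymal and Myh7 (-0.94) of the muscle markers, and 7.85% of all probes. Of the 8 beta cell markers tested, 3 had a positive and 5 a negative change. Of 6 mesenchymal markers 2 were well above background on all 4 arrays and 4 on 0, and their summed signal was 202 to 235.2 under scrambled and 140.6 to 164.8 under MOTS-c. Of these 2, Pdgfra had both MOTS-c arrays lower, whereas the groups overlapped for Col1a2 (-0.30 ± 0.23). The part of these markers in the results on the respiratory genes was not tested, and in bulk samples fewer cells of a type and less RNA per cell cannot be told apart. No Y-linked probe was detected (0 of 28 readings) whereas Xist was detected on all 4 arrays, which goes against the labelled sex on every array of both groups.

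Promoters of these genes are textbook targets of NRF-1, of the ETS factor GABP (also called NRF-2), of YY1 and of the estrogen-related receptors (ERR), so the RefSeq promoters (GRCm38.p6, 250 bases before to 50 after the transcription start) were searched for 4 motifs. Of the 90 members, 75 had an entry. The promoters below are shown because together they hold each of the 4 motifs, in genes whose values are described further on. Each runs from 120 bases before to 30 after the start, 5′ to 3′ on the gene's own strand, with matches in capitals. They lie at chr9:50603820-50603969 (minus strand) for Sdhd, at chr2:73911297-73911446 (minus strand) for Atp5g3, at chr2:174464072-174464221 (minus strand) for Atp5e, at chr4:24897963-24898112 (plus strand) for Ndufaf4 and at chr11:120098814-120098963 (plus strand) for Ndufaf8.
Sdhd: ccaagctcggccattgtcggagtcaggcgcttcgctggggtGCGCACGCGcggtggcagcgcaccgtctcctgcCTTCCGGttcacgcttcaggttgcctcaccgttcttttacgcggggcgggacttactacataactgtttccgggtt
Atp5g3: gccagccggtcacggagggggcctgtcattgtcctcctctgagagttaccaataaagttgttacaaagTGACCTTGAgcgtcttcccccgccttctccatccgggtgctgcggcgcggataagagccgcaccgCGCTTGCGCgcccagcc
Atp5e: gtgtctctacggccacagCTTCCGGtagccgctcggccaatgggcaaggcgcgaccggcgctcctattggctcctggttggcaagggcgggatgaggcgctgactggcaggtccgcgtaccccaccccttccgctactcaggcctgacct
Ndufaf4: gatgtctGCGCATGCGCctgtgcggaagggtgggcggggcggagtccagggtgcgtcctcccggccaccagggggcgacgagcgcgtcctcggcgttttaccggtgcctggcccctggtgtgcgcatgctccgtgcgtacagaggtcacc
Ndufaf8: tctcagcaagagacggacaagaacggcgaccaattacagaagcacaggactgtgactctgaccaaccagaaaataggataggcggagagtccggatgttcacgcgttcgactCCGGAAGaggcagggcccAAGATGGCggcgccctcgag

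In Sdhd the capitals are the NRF-1 core, searched as GCGCANGCG, followed by the ETS core CCGGAAG on the other strand; its ERR half-site begins 37 bases after the start, outside the stretch shown. The capitals in Atp5g3 are the ERR half-site TCAAGGTCA on the other strand, before the start, and an NRF-1 core after it. Atp5e shows an ETS core, Ndufaf4 an NRF-1 core on each strand, overlapping each other, and Ndufaf8 an ETS core followed by the YY1 core AAGATGGC. All motifs were searched on both strands of the whole 300-base window, and no match of one motif overlapped a match of another in the members.

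Of the 75 members with a promoter, 43 held at least 1 of the 4 motifs. The NRF-1 core was in 22 of them (29.3%), against 7.03% of 27025 genes with an entry. The ETS core was in 19 (25.3%), against 9.93%, and the YY1 core was in 11 (14.7%), against 3.19%. The ERR half-site was in 2 members, Sdhd and Atp5g3 (2.67%, against 0.466%), and 6 members (8%, against 1.49%) held both the NRF-1 and the ETS core: Sdhd, Uqcr11, Cox6a1, Atp5h, Atp5k and Atp5l. In 9 of the 11 members with a YY1 core the match lay after the transcription start on the strand of the gene, beginning 11 to 39 bases into the transcript. Member promoters were also richer in G and C, with a median of 58% against 52.7% and 19.5 CG dinucleotides against 7, and the part of this composition in the motif shares was not tested. A match describes the letters of the window and is no evidence of binding.

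**Figure D1:**
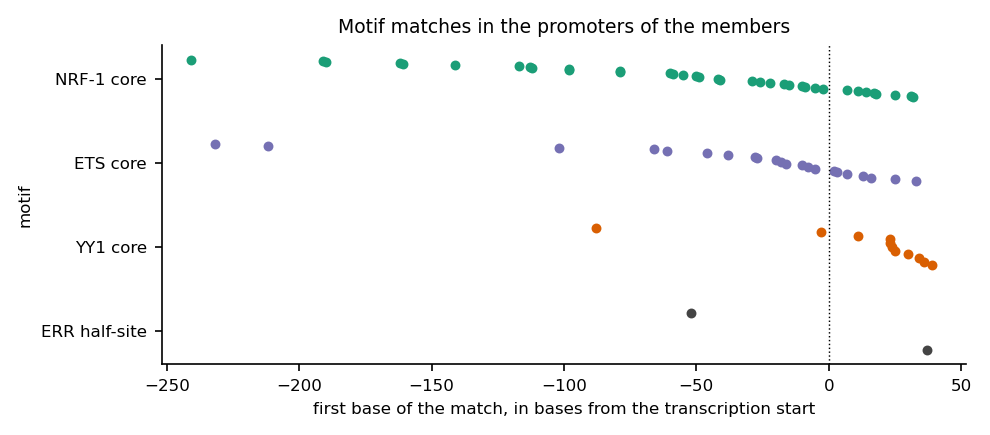
Position of each motif match in the promoters of the 75 members with an entry; the horizontal axis is the first base of the match in bases from the transcription start (dotted line), each point is 1 match, and the height within a motif's band only separates the points. Matches of the NRF-1 and ETS cores lie on both sides of the start, whereas 9 of the 11 members with a YY1 core have it between 11 and 39 bases after the start.

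The respiratory genes were almost all detected in the islet cells. Of the 90 members 88 were well above background on all 4 arrays and entered the fit. The remaining pair were the muscle isoform Cox8b, above background on 0 arrays, and the testis isoform Cox8c, above it on 1. The values below are log2 processed intensities after quantile normalization of the brightest probe of each gene, and a change is the mean of the MOTS-c arrays minus the mean of the scrambled arrays with its standard error from limma.

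No member passed the test. With limma, 0 of 88 members reached an adjusted p under 0.05, where 0% of 35087 probes did, and the smallest adjusted p was 0.718 among the members and 0.474 over all probes. At an unadjusted p under 0.05 there were 0 members against 7.85% of all probes (3.03% higher and 4.82% lower), and with a change of at least 1.5-fold as well there were 0 members against 1.1% higher and 2.43% lower. The changes of the 88 members ran from -0.40 (Cox6a2) to 0.27 (Ndufaf4) with a median of -0.01, beside a median of 0.01 over all probes. Of the 88 members 39 had a positive and 49 a negative change, whereas 52.9% of all probes had a positive one. The MOTS-c pair lay wholly above the scrambled pair for 20 members (22.7%) and wholly below it for 22 (25%), against 19.4% and 18.6% of all probes, so the members' shares were near the background in the upward direction and somewhat above it in the downward direction. That split depends on the scaling. When arrays were instead shifted to a common 75th percentile, 6 members lay above and 24 below, against 16.7% and 20.5% of all probes, and the members' median became -0.07 while that of all probes stayed at 0.00015. For 2 arrays against 2, an exact permutation test of a single gene cannot go below a two-sided p of 0.333.

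The changes were small. For 83 of the 88 members (94.3%) the 95% interval of the change lay within 1.5-fold in either direction, against 50.2% of all probes. These intervals rest on the limma error, which draws on the spread of all probes and had a median of 0.12 for the members. With 2 samples per group they are no test that a change is absent. A change of under 0.1 on the log2 scale was measured for 63 members (71.6%), against 37.7% of all probes. The replicate arrays of a group differed by a median of 0.07 for the members in both groups, against 0.16 (scrambled) and 0.19 (MOTS-c) over all probes. In 63 of 88 members the larger of the 2 replicate gaps exceeded the change itself, as it did for 74.3% of all probes. MOTS-c replicate 3 was the lowest array for 32 members (36.4%), close to its share of 33.3% over all probes.

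Much of this contrast followed the brightness of the probes. The members were bright, and 66 of them had a mean log2 signal of at least 14.07, their lower quartile. Among all 2443 probes at least as bright, 67.3% changed by under 0.1 and 90.3% had an interval within 1.5-fold, against 83.3% and 100% of the 66 members. An unadjusted limma p under 0.05 was reached by 1.31% of these bright probes and by 0% of the 66 members, so the share of 7.85% over all probes is no like comparison. Bright probes in general also moved with the scaling, since after the 75th percentile shift the median change was -0.07 for these probes as it was for the bright members.

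**Figure D2:**
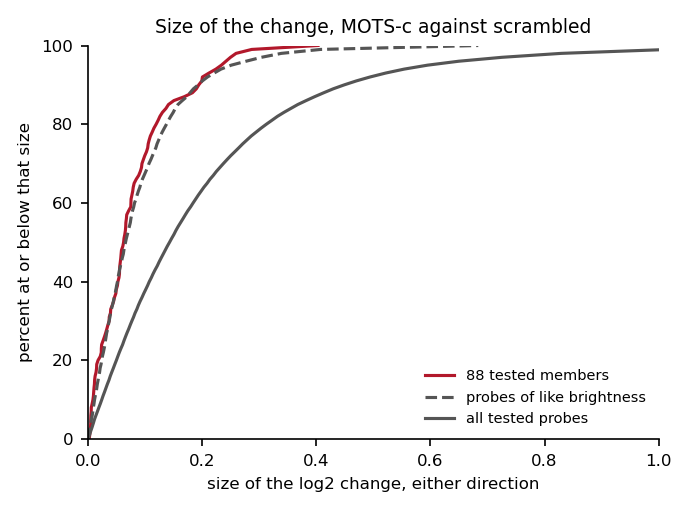
Cumulative distribution of the size of the log2 change between MOTS-c and scrambled (horizontal axis) for the 88 tested members, for the 2443 probes at least as bright as the members' lower quartile, members included, and for all 35087 tested probes; the vertical axis is the percent of genes or probes at or below that size. The curve of the members, which includes members dimmer than that quartile, lies close to that of the bright probes and left of that of all probes. Under 0.1 were 71.6% of members and 37.7% of all probes. Of the 66 members at or above the quartile 83.3% were under 0.1, against 67.3% of the bright probes.

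Complex I, the NADH dehydrogenase and the largest of the complexes, had a median change of -0.0048 over its 36 subunits. Of these, 8 had both MOTS-c arrays above and 10 had both below the scrambled arrays, against 19.4% and 18.6% of all probes. The 7 core subunits, which together bind the flavin and the iron-sulfur clusters, ran from -0.14 to 0.07 with a median of -0.0048. The 29 accessory subunits, which surround the core, ran from -0.26 to 0.11.

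Ndufab1, the mitochondrial acyl carrier protein, had log2 signals of 11.63 and 11.31 under scrambled and 11.07 and 11.36 under MOTS-c. The groups overlapped, because MOTS-c replicate 3 lay above scrambled replicate 2. Its change was -0.26 ± 0.18 (95% interval -0.73 to 0.22), and it ran from -0.41 without scrambled replicate 2 to -0.10 without scrambled replicate 1. Ndufa2, an accessory subunit, read 16.24 and 16.18 under scrambled and 16.09 and 15.93 under MOTS-c. Both MOTS-c arrays were lower, and the change was -0.20 ± 0.13 (-0.54 to 0.14).

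The largest positive values of complex I were smaller. Ndufa9, an accessory subunit of the peripheral arm, gave 13.55 and 13.64 against 13.64 and 13.77, a change of 0.11 ± 0.13, with scrambled replicate 2 just above MOTS-c replicate 2. Ndufv3, an accessory subunit next to the NADH-oxidizing site, gave 14.62 and 14.68 against 14.79 and 14.70, a change of 0.09 ± 0.12, with the groups apart. None of these 4 subunits had a limma adjusted p below 0.768.

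The 8 assembly factors of complex I, which build the complex and are absent from its mature form, stood further from 0 than the subunits. Their median change was 0.15, and 5 of the 8 had both MOTS-c arrays above both scrambled arrays while 2 had both below. Assembly factors are measured less brightly, and among the 4867 probes in the same range of mean log2 signal (10.79 to 12.56) 20.1% lay above, 20.7% lay below and the median change was 0.0061. With 8 genes and 0 calls this is a count and no test of the list.

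Ndufaf4, which takes part in early assembly of the quinone module, had log2 signals of 12.21 and 11.91 under scrambled and 12.30 and 12.37 under MOTS-c. Both MOTS-c arrays were higher, and scrambled replicate 2 stood apart at the bottom. The change was 0.27 ± 0.15 (95% interval -0.14 to 0.68), and it was 0.12 when scrambled replicate 2 was left out and 0.42 when scrambled replicate 1 was. Its promoter is the one above with an NRF-1 core on both strands.

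Ndufaf3 is the binding partner of Ndufaf4 in that early step. Its signals were 11.02 and 11.06 under scrambled and 10.84 and 10.76 under MOTS-c, so both MOTS-c arrays were lower. The change was -0.24 ± 0.12 (-0.56 to 0.08), with the smallest unadjusted limma p of any member (0.112, adjusted 0.718). The partners thus had changes of opposite sign, and the difference between them was not tested.

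Ndufaf1, an assembly factor of the membrane arm, gave 11.45 and 11.55 against 11.67 and 11.76, a change of 0.21 ± 0.12 with both MOTS-c arrays higher. Ndufaf8, which works with Ndufaf5, gave 10.61 and 11.12 against 10.81 and 10.63. The scrambled arrays of Ndufaf8 enclosed both MOTS-c arrays and the change was -0.15 ± 0.21; without scrambled replicate 2 it was 0.10. The other four factors, Ndufaf2, Ndufaf5, Ndufaf6 and Ndufaf7, were named after their values were seen. They ran from -0.07 for Ndufaf6 to 0.19 for Ndufaf2, a chaperone of late assembly.

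Complex II, succinate dehydrogenase, is encoded entirely in the nucleus. On their brightest probes its 4 subunits had a median change of -0.02 and lay within 0.08 of 0. A second probe gave -0.12 ± 0.12 for Sdhb and 0.083 ± 0.14 for Sdha. Sdha, the flavoprotein that oxidizes succinate, read 14.39 and 14.37 against 14.35 and 14.42 (change 0.0041 ± 0.12). Sdhb, which holds the iron-sulfur clusters, read 15.98 and 15.98 against 15.90 and 15.91 (-0.08 ± 0.12). Sdhb was the one subunit of the complex with separate groups, both MOTS-c arrays being lower, although the limma error, which draws on the spread of all probes, was larger than the gap. The membrane anchor Sdhc gave 12.76 and 12.86 against 12.83 and 12.94 (0.08 ± 0.13), and the other anchor, Sdhd, gave 13.891 and 13.999 against 13.954 and 13.846 (-0.04 ± 0.13). For both anchors the groups overlapped.

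Complex III passes electrons from ubiquinol to cytochrome c. Its 8 subunits had a median change of -0.03, with 1 above, 1 below and 6 overlapping. Over all probes 19.4% lay above and 18.6% below. The core protein Uqcrc1 gave 13.74 and 13.68 against 13.68 and 13.56 (-0.09 ± 0.12), and the other core protein, Uqcrc2, gave 14.70 and 14.74 against 14.75 and 14.80 (0.06 ± 0.12). The MOTS-c arrays were the higher pair for Uqcrc2 and the groups met for Uqcrc1. The small subunits Uqcr10 (-0.07 ± 0.12) and Uqcr11 (0.07 ± 0.12) gave changes within their errors.

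Complex IV, cytochrome c oxidase, was followed through 9 broadly expressed subunits, whose median change was -0.05. None had both MOTS-c arrays above the scrambled arrays and 3 had both below, Cox6c, Cox8a and Ndufa4. The shares over all probes were 19.4% above and 18.6% below. Cox6c, a small nuclear subunit, read 16.77 and 16.69 under scrambled and 16.42 and 16.58 under MOTS-c. Each MOTS-c array was lower than both scrambled arrays, and the change was -0.23 ± 0.13 (95% interval -0.57 to 0.12). Cox8a (-0.08 ± 0.12) and Ndufa4 (-0.06 ± 0.12), both named after their values were seen, differed less. On the brightest probes the largest positive value, 0.06 ± 0.13, was that of Cox5a. Cox7c changed by 0.04 ± 0.13 on its brightest probe and by 0.22 ± 0.16 on a second probe. Cox5a and Cox7c were also named after their values were seen.

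The set of tissue isoforms of complex IV holds muscle and testis forms, which there take the place of the broad forms, and also Ndufa4l2. Its tested genes were dimmer, and their changes carried larger errors. Cox6a2, the heart and skeletal muscle form of subunit 6a, gave 8.36 and 8.29 against 8.19 and 7.65. MOTS-c replicate 3 was the low array. The change of -0.40 ± 0.21 (-0.97 to 0.16) became -0.13 without that array and -0.67 without MOTS-c replicate 2.

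Cox7a1, the muscle form of subunit 7a, went the other way, with 9.71 and 9.98 against 10.10 and 10.08. Both MOTS-c arrays were higher and the change was 0.25 ± 0.15; leaving out scrambled replicate 1 gave 0.11 and leaving out scrambled replicate 2 gave 0.38. Of 5 muscle markers, 3 were well above background on all 4 arrays, Ckm was above it on 0, and their summed signal was 470.4 to 681.5 on the scrambled and 329.3 to 442.5 on the MOTS-c arrays. Without Myh7 the sums overlapped, at 140.6 to 204.9 and 164.8 to 174.7, and Actc1 (0.06 ± 0.18) and Tnnt3 (-0.09 ± 0.28) changed by less than their errors. Myh7, the slow myosin heavy chain, gave 8.37 and 8.90 against 8.12 and 7.27, lowest on the same array as Cox6a2. The part of muscle RNA in these values was not tested.

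The testis forms Cox6b2 and Cox7b2 were detected on all 4 arrays. Cox6b2 gave 7.95 and 8.30 against 8.33 and 8.13 (0.11 ± 0.18), and Cox7b2 gave 8.17 and 8.22 against 8.19 and 7.99 (-0.11 ± 0.14). Ndufa4l2, the hypoxia-inducible relative of Ndufa4, gave 6.45 and 6.24 against 6.36 and 6.20 (-0.06 ± 0.15). The groups overlapped for all 3 genes. Cox7a2l, the factor that links complexes III and IV, gave 15.82 and 15.73 against 15.76 and 15.74 (-0.02 ± 0.12), also with overlap.

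ATP synthase consists of a catalytic F1 head, a rotor of c subunits in the membrane and a stalk that holds the head still. Its 17 members had a median change of 0.0048, with 5 above and 4 below, against 19.4% and 18.6% of all probes. Within F1, Atp5b, the catalytic beta subunit, read 16.08 and 16.22 under scrambled and 16.28 and 16.42 under MOTS-c. All of its values were higher under MOTS-c, by 0.20 ± 0.13 (95% interval -0.15 to 0.55). Atp5a1, the alpha subunit that alternates with it in the head, read 16.28 and 16.19 against 16.30 and 16.36 (0.10 ± 0.12), again with both MOTS-c arrays higher. A second probe of Atp5a1 changed by 0.0058 ± 0.12.

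Atp5e, the epsilon subunit of the central stalk, went the other way. Its log2 signals were 16.07 and 16.10 under scrambled and 15.89 and 15.89 under MOTS-c. The groups were separate with the replicates close together, and the change was -0.19 ± 0.12 (-0.50 to 0.12). Under limma with an intensity trend, which gives bright probes a smaller error, its unadjusted p was 0.0112. Its adjusted p was 0.409 there, and that was the lowest of its adjusted p-values over the alternatives, which ran up to 1.

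The 3 c ring genes encode the same mature protein behind different import sequences. Atp5g1 gave 16.18 and 16.38 against 16.27 and 16.31 (0.0048 ± 0.14), Atp5g2 gave 17.40 and 17.31 against 17.30 and 17.15 (-0.13 ± 0.13), and Atp5g3 gave 16.14 and 16.12 against 16.07 and 16.12 (-0.03 ± 0.12). Only for Atp5g2 were both MOTS-c arrays below both scrambled arrays. Of the stalk and membrane subunits, 9 in number, Atp5md, a small membrane subunit, had the largest negative change at -0.14 ± 0.13. A second probe of Atp5md changed by -0.05 ± 0.13.

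**Figure D3:**
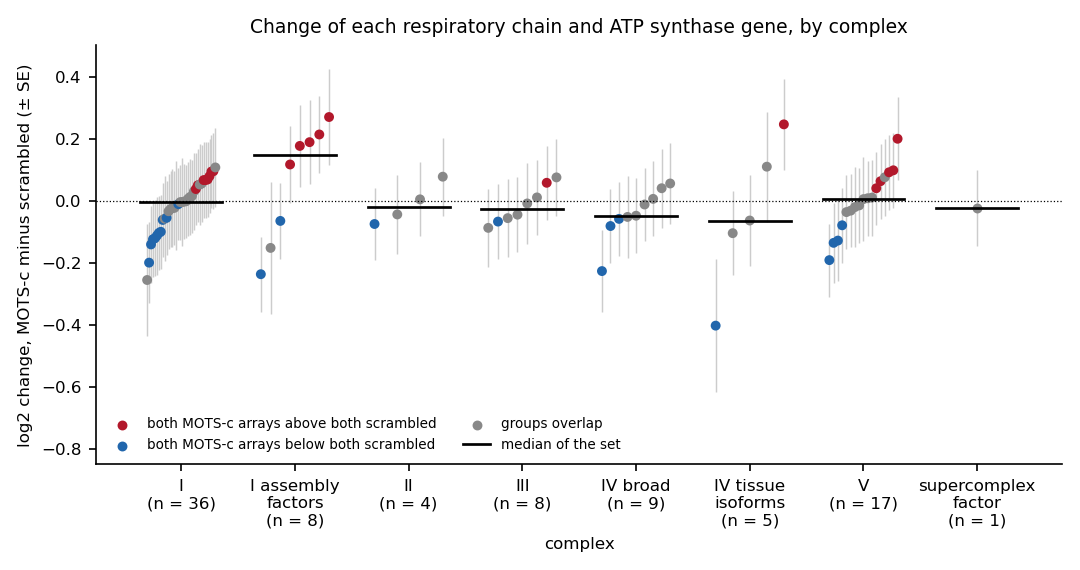
Log2 change between MOTS-c and scrambled (vertical axis, with the limma standard error as a grey line) for each of the 88 tested members, grouped by complex on the horizontal axis; color shows whether the 2 MOTS-c arrays lay above, below or among the 2 scrambled arrays, and the black line is the median of each set. The subunits lie around 0, with set medians from -0.06 to 0.0048, and the assembly factors of complex I have a median of 0.15.

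**Figure D4:**
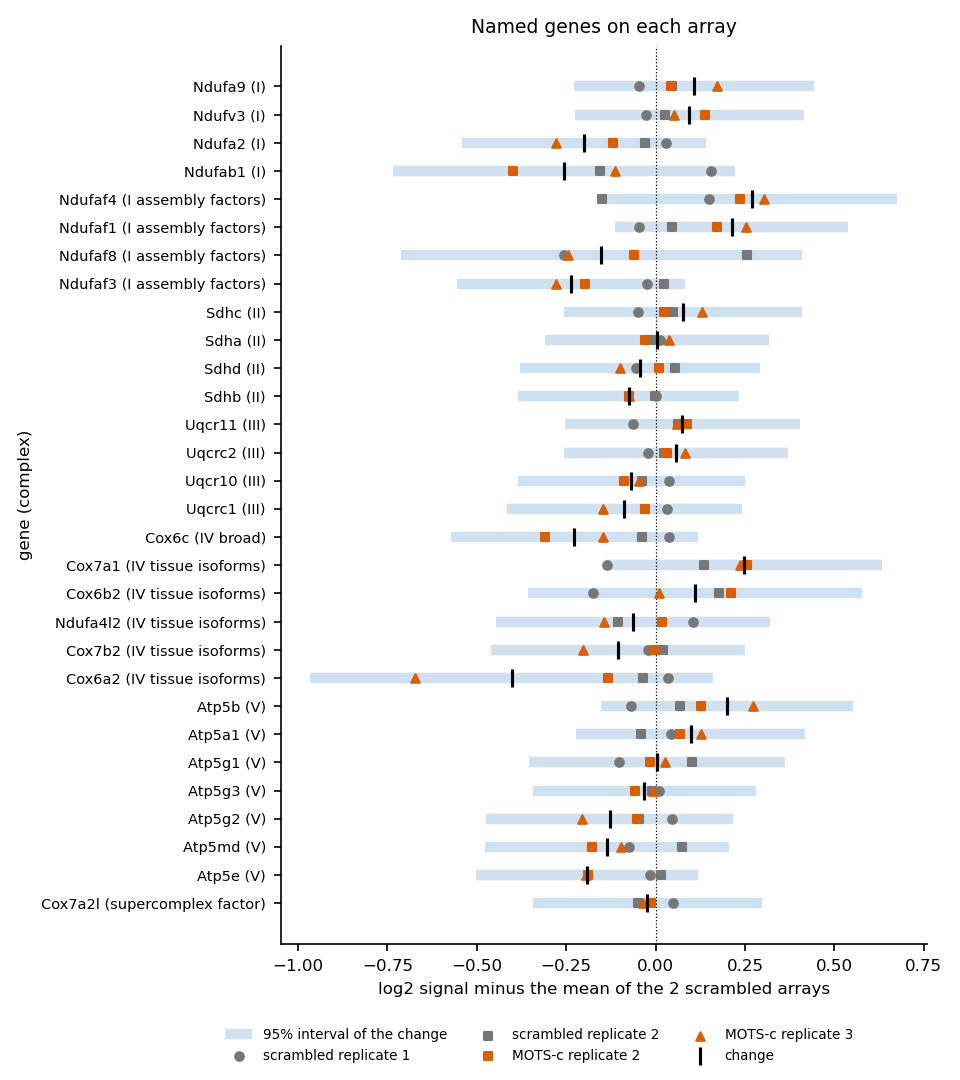
Log2 signal of each named member on each of the 4 arrays, as the difference from the mean of its 2 scrambled arrays (horizontal axis), with the change (black mark) and its 95% interval from limma (pale bar), by gene and complex. Every interval includes 0, and Cox6a2 has its low value on MOTS-c replicate 3.

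For the 19 members with 2 or more tested probes, the probes differed in their change by a median of 0.06 and at most by 0.18 (Cox7c), and in 5 of the 19 they had opposite signs. The median change was -0.03 for the 22 members with an NRF-1 core and 0.0052 for the 52 tested members without it, -0.05 and 0.0056 for the ETS core, and 0.03 and -0.0049 for the YY1 core, which are descriptions and were not tested.

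Other genes of the pathway, outside the name rule, gave 0 calls in each list. Cycs, cytochrome c, had 16.03 and 15.91 under scrambled and 16.13 and 16.19 under MOTS-c, both higher, a change of 0.19 ± 0.13 (limma adjusted p 0.777). Cyc1, cytochrome c1 of complex III, changed by 0.06 ± 0.12, and Cox4i1, the regulatory subunit of complex IV, by -0.02 ± 0.12. The list of assembly factors of complexes II to V and further factors of complex I had 38 tested genes. At an unadjusted limma p under 0.05 there were 0 of these, against 7.85% of all probes. Both MOTS-c arrays lay above for 5 and below for 6, against 19.4% and 18.6% of all probes, and the median change was -0.02. No probe was mapped to any of the 13 mitochondrially encoded subunits, which were not analysed here.

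Of 16 regulators of mitochondrial biogenesis 14 were tested, and 0 were at an unadjusted limma p under 0.05, against 7.85% of all probes. Their median change was 0.07, with 5 above and 4 below, against 19.4% and 18.6% of all probes. Above were Nrf1, Gabpb1 (0.13), Esrra (0.15), Tfb2m (0.13) and Ssbp1 (0.09). Below were Pprc1 (-0.20), Polrmt (-0.14), Tfb1m (-0.13) and Yy1 (-0.11). All of these but Nrf1 were named after their values were seen. Nrf1, whose protein binds the NRF-1 core, gave 11.46 and 11.45 against 11.58 and 11.52, both MOTS-c arrays higher (0.09 ± 0.12). Gabpa, which encodes the DNA-binding part of GABP, gave 10.07 and 9.56 against 9.81 and 10.36, with overlapping groups (0.27 ± 0.27). Tfam, whose protein packages mitochondrial DNA and helps to start its transcription, changed by 0.08 ± 0.12. The coactivators Ppargc1a and Ppargc1b were well above background on 0 arrays.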

How the data were processed

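Gene expression was measured on 4 one-color arrays of islet cells, 2 per peptide. Samples were grouped and numbered by their labels. The authors amplified and labeled total RNA with Cy3 and extracted spots with Feature Extraction (version 11.0.1.1). The deposited intensity of a spot is corrected for background within its array, with no step between arrays. A second deposited table holds the same intensities rounded (ratio 0.995 to 1.005) and served as an alternative.

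From these files 3671 control spots and the outlier spots (96 to 131 per array) were left out, intensities were taken to log2 and averaged per probe. A probe stayed in if it was well above background on 2 or more arrays (the methods' Flag A is not defined in the sources used here), and the values were quantile normalized. Then limma (3.58.1, R 4.3.3) compared the groups over 35087 probes with Benjamini-Hochberg adjustment at 0.05; residual degrees of freedom were 2, and 2.64 came from all probes. Symbols came from accessions (32994 probes) through the GRCm38.p6 gene table. Coordinates are given for RefSeq promoters alone, since the array annotation uses a different build.

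Named members are the 2 largest positive and negative changes of each complex, complex II, tissue isoforms, c ring genes and undetected genes, with Cox4i1, Cycs, Cyc1, Ppargc1a, Tfam, Nrf1 and Gabpa of the other lists; others are marked as named after their values were seen. Ppargc1b, the marker genes and the promoters shown were also chosen in that way. Members and lists were chosen with earlier results of these data known. Alternatives were a 75th percentile shift, normexp with an offset of 50 on median spot signals (the mean is absent from the files), the rounded table, no or a stricter filter on dim probes, the mean over a gene's probes, limma with a trend, the methods' t-test and leaving out each array. All 4 arrays lay on 1 slide, so no slide block was fitted. The steps were tested on simulated data. Some results of the cell type markers are not reported here.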

Additional observations from a re-analysis of the deposited data

How the results depend on the processing

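No paired analysis was possible because the groups share only replicate number 2. At an adjusted p under 0.05 there were 0 members in every setting run. Over all probes the smallest adjusted p was 0.0142 by the methods' t-test, so passing probes outside the members existed there. Among the other settings with all 4 arrays the smallest was 0.158, for limma with a trend. The shift to a common 75th percentile gave 6 members with both MOTS-c arrays above, and medians of -0.071 for all members, -0.067 for complex I, -0.075 for complex II, -0.10 for complex III, -0.084 for the broad subunits of complex IV and -0.075 for complex V; it also turned Atp5g1 (-0.075), Sdha (-0.054) and Uqcrc2 (-0.017). With normexp, 2 members were higher (Ndufaf1, Ndufaf4) and 2 lower (Cox6c, Ndufaf3) at an unadjusted p under 0.05 (3.51% and 5.36% of all probes), the medians were -0.027 for all members, -0.044 for complex I, 0.18 for the assembly factors, 0.0031 for complex II and -0.070 for complex III, and Atp5g1 turned (-0.014). Unadjusted counts were 2 lower without a filter (Atp5e, Ndufaf3; 4.58% of all probes), 2 higher (Ndufa12, Ndufb11; 3.08%) and 3 lower (Atp5e, Ndufaf3, Sdhb; 3.51%) by the methods' t-test, and 1 higher (Atp5b; 3%) and 3 lower (Atp5e, Cox6c, Ndufa2; 5.4%) for limma with a trend. The mean over a gene's probes gave medians of -0.012 for complex I and 0.13 for the assembly factors, and turned Atp5g1 (-0.0065). The cause of these differences was not tested.

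Leaving out 1 array, which leaves a lone sample assumed to vary like the other group, gave 0 higher and 0 to 1 lower members at an unadjusted p under 0.05 (Cox6a2 without MOTS-c replicate 2), and 28 to 33 members above and 31 to 39 below (34.5% to 37.5% and 29.3% to 38.3% of all probes), since fewer arrays need to be apart. It turned the change of 26 of the 30 named members or moved it by over 1.5 times (not Atp5e, Ndufaf1, Ndufaf3 and Sdhb). The medians ran from -0.022 to -0.0035 for all members, -0.018 to 0.0010 for complex I, 0.098 to 0.17 for the assembly factors, -0.028 to 0.00065 for complex II, -0.054 to 0.0069 for complex III, -0.070 to -0.015 for the broad and -0.15 to 0.017 for the tissue forms of complex IV, and -0.021 to 0.026 for complex V. Changes of sign were seen for Atp5g1 (-0.098 to 0.11), Cox6b2 (-0.067 to 0.29), Cox7a2l (-0.071 to 0.025), Ndufa4l2 (-0.17 to 0.040), Ndufaf8 (-0.41 to 0.10), Sdha (-0.029 to 0.038) and Sdhd (-0.099 to 0.0095). Of the 30 named members 22 kept their sign in all settings run.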
